A study of Mus musculus with 12 samples.

Results

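Mouse hippocampal RNA was compared for the interaction of prenatal ethanol and maternal separation, that is, for genes whose level in mice with both treatments differed from what the effects of each treatment alone add up to. The interaction of a gene was taken as ethanol + stress minus ethanol minus stress plus control, on the scale log2(summed TPM of its transcripts + 0.5), and written as I. TPM is a measure of transcript abundance corrected for length. A value of 0 is exact additivity on this scale, a positive I means a higher level with both treatments than the sum of the single effects gives, and a negative I means a lower one. Genes with a mean of at least 1 TPM over the 12 libraries were tested, which left 14455 of 35580 genes with a matched transcript. All mice were males at postnatal day 70, of the strain C57BL/6 in the labels and C57BL/6J in the study's methods, with 3 in each of 4 groups. Control mice had dams that drank water and were left undisturbed. Ethanol mice had dams that were offered 10% ethanol in water by choice through gestation and, by the study's methods, until postnatal day 10, so that its availability overlapped the first days of separation. Stress mice spent 3 h of each day isolated from their mother and siblings between postnatal days 2 and 14, and ethanol + stress mice had both exposures. Litters were divided between undisturbed and separated pups, so control and stress mice, and likewise ethanol and ethanol + stress mice, can be littermates. The sources used here do not tie a mouse to its litter, so no litter term could be fitted and p values measure the spread between these mice only.

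Alcohol reaching the fetus and the loss of maternal care are both known to act on the hypothalamic-pituitary-adrenal axis, whose hormone corticosterone binds the glucocorticoid receptor, a transcription factor that is abundant in the hippocampus. Microglia, the resident immune cells of the brain, are among the cells that respond to interferons, the signaling proteins of antiviral defense. A factorial design with each treatment alone and together separates effects that add from effects that do not.

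The libraries held between 12000000 and 14920000 read pairs, as estimated from how low TPM values of single-transcript genes are spaced, of which 80.6% to 83.2% per library lay within 0.1 of a whole number of read pairs, where an even spread would give 20%. Deposited values summed to between 889222 and 1173650 per library, and the 3 highest sums were those of ethanol replicate 2 and ethanol + stress replicates 2 and 3. The same 3 libraries stood at 24.2 to 29.7 on the first principal component, which held 22.6% of the variance, while the other 9 lay between -25.6 and 4.26. The interaction of the log2 sums was 0.036. Markers of dentate granule cells and of CA1 pyramidal cells, the principal neurons of the hippocampus, were present in every library, with summed levels of 161 to 219 and 334 to 433 TPM. Choroid plexus genes ranged from 58.5 to 7401 TPM, with every group spread widely. In bulk tissue, fewer cells of a type and less RNA per cell cannot be told apart.

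Few genes passed the test for a departure from additivity, and none after adjustment. At an unadjusted p under 0.01, limma called 45 genes (0.311% of those tested), 17 with I above 0 (0.118%) and 28 with I below 0 (0.194%). With evenly spread p values, 145 genes would be called. At p under 0.05 there were 274 genes (1.90%), and after Benjamini-Hochberg adjustment by limma 0 genes passed 0.05, the lowest adjusted p being 1.0. The count of called genes was 76 without ethanol replicate 2 and 89 without ethanol + stress replicate 1, and between 35 and 58 without any other library. The median I was -0.0033, and 90% of genes lay between -0.40 and 0.37. The standard error of I had a median of 0.226, and its 95% interval reached 0.493 to either side in the median gene. For 11944 genes (82.6%) that interval lay within -1 and 1, so that an interaction of more than 2-fold was outside it. For the other genes the precision did not allow such a bound. Genes just inside and just outside the threshold had p values of 0.00979 (Fbxo47) and 0.0101 (Dcaf5).

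**Figure D1:**
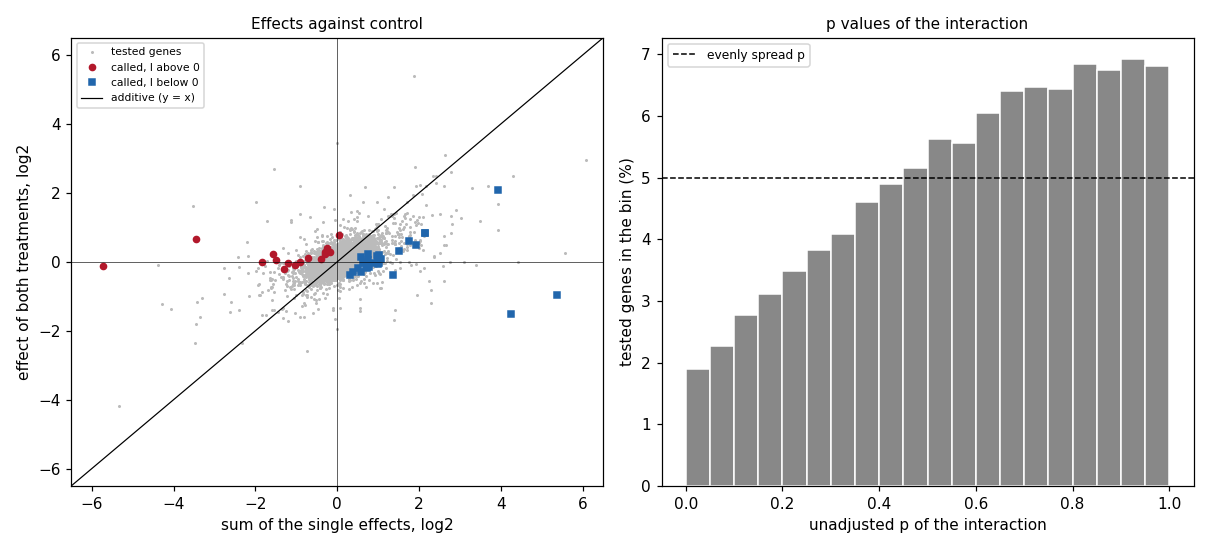
Left, the effect of both treatments against the sum of the single effects for 14455 tested genes (log2, both against control), with the called genes marked and the line of exact additivity. Right, the share of tested genes in each bin of 0.05 of the unadjusted p of the interaction; the lowest bin holds 1.90% of genes, below the 5% of evenly spread p values.

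Genes were sorted by the size of the interaction and the sign of the combined effect. A gene was additive where I lay within 1 standard error of 0. Otherwise it was opposite where the combined effect had the other sign than the sum of the single effects, less than additive where it had the same sign and was smaller, and more than additive where it was larger. The combined effect lay within 1 standard error of 0 in 56.1% of tested genes and in 23 of the 45 called for the interaction, and in these the split between opposite and less than additive rests on the sign of a value near 0. Of all tested genes, 11499 (79.6%) were additive, 1106 (7.65%) less than additive, 1578 (10.9%) opposite and 272 (1.88%) more than additive. The 3 effects are differences from the same control mice, so the shares describe these mice and were not tested. Any difference between the 4 groups was called for 87 genes (0.602%) by limma's F test at an unadjusted p under 0.01, of which 22 were additive, 24 less than additive, 21 opposite and 20 more than additive. Among the 30 genes with the smallest F p, 6 were additive, 10 less than additive, 6 opposite and 8 more than additive. The additive count was between 3 and 9 when single libraries were left out. Of these 30 genes, 11 were pseudogenes (36.7%, against 3.92% of all tested genes), whose reads can come from their parent genes. The processed pseudogene Gm49070 was the only gene with an adjusted F p under 0.05 (0.0216 by limma), and without control replicate 1 or 3, ethanol replicate 1 or 2, stress replicate 2 or ethanol + stress replicate 2 no gene was. It passed the filter only through the groups in which it was high, and with at least 1 TPM required in every group mean no gene had an adjusted F p under 0.05 by limma (lowest 0.9998). It was additive, with values of 2.18, 3.73 and 2.03 TPM in ethanol mice and 1.09, 2.16 and 2.43 in ethanol + stress mice, and was listed at 0 in all 6 mice without ethanol.

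Of the 6 additive leading genes, 3 with assigned names are described here. Cth, the cystathionine gamma-lyase of the transsulfuration pathway, stood at 4.70, 4.86 and 3.68 TPM in control and 3.89, 5.34 and 4.68 in stress mice. It stood at 7.56, 6.95 and 6.86 TPM in ethanol and 5.98, 7.67 and 7.59 in ethanol + stress mice. In the gene sum every mouse with ethanol was thus above every mouse without it, while in the main transcript, of 1815 bases and 78.1% of the TPM, an ethanol mouse at 3.94 TPM lay below a control mouse at 4.41 TPM. The interaction was -0.08 with a standard error of 0.22. Its sign turned without control replicate 3, stress replicate 2 or ethanol + stress replicate 1, and with coding transcripts only. The helicase gene Dhx35 had the same order, from 8.53 to 10.6 TPM without ethanol and from 11.7 to 16.8 TPM with it (I 0.03, standard error 0.21). Its main transcript, of 3284 bases and 60.3% of the TPM, did not have that order, with 7.81 to 8.37 TPM in control, 6.31 to 7.98 after ethanol, 5.02 to 8.41 after stress and 5.98 to 8.25 after both. Cplx3, a complexin that acts in neurotransmitter release, followed separation instead. It stood at 6.14 to 9.23 TPM in the 6 undisturbed mice and at 2.92 to 5.78 TPM in the 6 separated mice, with an interaction of -0.24 and a standard error of 0.27. This order held for the gene sum, and in the main transcript, of 2859 bases and 55.6% of the TPM, stress mice (2.77 to 3.71 TPM) overlapped control mice (3.38 to 3.73 TPM).

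Fli1, an ETS transcription factor of endothelial and blood cells, stood at 2.75 to 2.90 TPM in control, 3.11 to 3.40 after ethanol, 3.33 to 3.49 after stress and 4.35 to 4.83 after both, in the sum of its transcripts (more than additive, I 0.23, standard error 0.18, not called). Its main transcript, with 91.5% of the TPM, stood at 3.77 to 4.27 TPM after both and at 2.65 to 3.41 TPM in the other 9 mice, and there the single groups overlapped control. Sinhcaf, also more than additive and a subunit of the Sin3 histone deacetylase complex, stood at 15.2, 13.2 and 14.9 TPM in ethanol + stress mice and between 2.78 and 8.79 TPM in the other 9. Its interaction of 0.76 (adjusted p = 1.0 by limma) was not called, and was -0.14 with coding transcripts only. A noncoding transcript of 202 bases held 61.5% of the Sinhcaf TPM, and the coding transcript of 2697 bases had an interaction of -0.02. The pseudogene Gm42642, more than additive, was called, with 20.6 to 28.6 TPM in ethanol + stress mice and 12.1 to 18.0 TPM in the others (I 0.72). The pseudogene Gm14269, more than additive, was listed at 0 in all ethanol mice, at 1.06, 2.41 and 0 TPM in control mice and at 1.14 to 5.86 TPM in both separated groups. Gm48848 was less than additive, with 9.29 to 12.8 TPM in control mice, 7.94 TPM in 1 ethanol mouse and 0 in all others. Pdcd5-ps was opposite, at 1.31 to 22.1 TPM in stress mice and at 0 in 8 of the other 9. These pseudogenes are reported as uncertain, and Gm14269, Gm48848 and Pdcd5-ps passed the filter only through groups in which they were high.

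The 12 named genes called with I below 0 had effects above 0 for each treatment alone, which are measured against the same control mice. Mbtps2, the membrane protease that activates sterol regulatory element-binding proteins, had the smallest p. Its gene lies on chromosome X from 157535371 to 157598715 (GRCm38, minus strand). It stood at 9.19, 9.48 and 9.95 TPM in control, 11.2, 12.3 and 11.7 after ethanol, 13.4, 12.9 and 14.2 after stress and 10.2, 10.0 and 9.79 after both. Both single groups lay above control without overlap, and the ethanol + stress mice lay below both single groups. The interaction was -0.70 with a 95% interval of -0.98 to -0.42 (adjusted p = 1.0 by limma). Hyal2, a hyaluronidase anchored at the cell surface (chromosome 9, 107567945 to 107572779), had 10.8, 10.1 and 10.8 TPM in control, 11.9, 12.4 and 10.5 after ethanol, 14.7, 12.9 and 11.2 after stress and 8.89, 7.83 and 9.18 after both. The ethanol + stress mice lay below every other mouse, and the pattern was opposite (I -0.68, adjusted p = 1.0 by limma). Primpol, a primase and polymerase that restarts stalled replication forks, had means of 2.47 ± 0.392 TPM in control, 4.04 ± 0.917 after ethanol, 3.59 ± 0.329 after stress and 2.61 ± 0.207 after both (SD, n = 3 each). Its interaction was -0.995 with a standard error of 0.26. Aaas, a nuclear pore component, had means of 10.9 ± 1.83, 16.4 ± 2.49, 15.2 ± 2.24 and 12.5 ± 0.758 TPM in the same order, and an interaction of -0.83 that was not called with coding transcripts only. Col15a1, a basement membrane collagen, had 0.763, 0.846 and 2.63 TPM in control, 2.57, 2.39 and 2.59 after ethanol, 2.14, 1.81 and 2.40 after stress and 1.31, 0.721 and 0.604 after both. One control mouse was as high as the ethanol mice, and the interaction was -1.74 with a 95% interval of -2.75 to -0.73. The ethanol + stress mean of 0.878 TPM was under the filter, which Col15a1 passed through the other groups. Some difference between groups was thus built into its being tested.

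Tmem253, an uncharacterized membrane protein gene, was less than additive from a low control level. Its control mean of 0.464 TPM was under the filter, which it passed through the treated groups, so some difference between groups was built into its being tested. It stood at 0.233 to 0.741 TPM in control, 3.48 to 4.78 after ethanol, 1.63 to 4.43 after stress and 3.12 to 3.97 after both, so that each treated group lay above control and both together were no higher than ethanol alone (I -1.83). The Y-linked copies Gm21860 and Gm21748 have identical values and cannot be told apart, so the counts given here for called and named genes hold 1 signal under both names. They stood at 3.43 to 5.19 TPM in control and at 6.22 to 12.9 TPM in the 9 treated mice (I -1.30). The other named genes with I below 0 were Ankfn1 (-1.07), Adamtsl1 (-0.94), Leng8 (-0.52) and Mbd5 (-0.45), each called without some single libraries and not without others. Leng8 and Mbd5 were also not called with a common total or with coding transcripts only. Among the called genes outside the 24 named ones were Mmp2, a matrix metalloproteinase, with 1.29 to 1.76 TPM in control, 1.89 to 2.79 after ethanol, 2.07 to 3.13 after stress and 1.13 to 1.74 after both, and Lrrk2 and Notch1 (I -0.86 and -0.85). These 3 were chosen here after their values were seen.

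The 12 named genes called with I above 0 had effects below 0 for each treatment alone on the log2 scale, against the same control mice. Plin3, which coats lipid droplets (chromosome 17, 56277476 to 56292873), stood at 18.7, 16.2 and 16.2 TPM in control, 15.9, 17.4 and 14.8 after ethanol, 16.3, 14.9 and 14.3 after stress and 22.0, 23.0 and 22.4 after both. Every ethanol + stress mouse lay above the other 9, and the interaction was 0.64 with a 95% interval of 0.34 to 0.94 (adjusted p = 1.0 by limma). Ptpn1, the tyrosine phosphatase that dampens insulin and leptin signaling, had means of 24.1 ± 2.90 TPM in control, 17.0 ± 1.56 after ethanol, 18.0 ± 3.40 after stress and 24.3 ± 4.75 after both (SD, n = 3 each). Both single groups were lower and the combined group was at the control level (I 0.91). The call was lost with a common total and with coding transcripts only. Ifitm7, of the family of interferon-induced transmembrane proteins, had 3.14, 1.64 and 3.76 TPM in control, 2.13, 1.17 and 0.812 after ethanol, 1.16, 1.08 and 1.08 after stress and 2.62, 3.07 and 2.39 after both (I 1.83, standard error 0.42). A noncoding transcript of 553 bases, with a median of 4.97 estimated read pairs, held 89.3% of that TPM, and transcripts of 1000 bases or more held 7.19%.

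Klf15, a transcription factor gene induced by glucocorticoids (chromosome 6, 90462576 to 90475238, plus strand), had 19.8, 16.3 and 18.9 TPM in control, 14.9, 18.6 and 15.9 after ethanol, 16.5, 16.1 and 16.6 after stress and 21.1, 24.6 and 21.5 after both. The single groups overlapped control, and the ethanol + stress mice lay above all others (I 0.59, 95% interval 0.24 to 0.93, adjusted p = 1.0 by limma). Tmem119, a microglial surface marker, had means of 17.7 ± 1.97, 15.7 ± 1.95, 16.8 ± 0.506 and 21.9 ± 1.56 TPM in control, ethanol, stress and ethanol + stress mice (SD, n = 3 each), and an interaction of 0.54 that was called in 4 of 12 fits without a single library and was lost with a common total. Sgms1, a sphingomyelin synthase, stood at 33.8 to 34.9 TPM in ethanol + stress mice and at 25.2 to 31.6 TPM in the others (I 0.46, called in 7 of those 12 fits and not with a common total). The pseudogenes Gm11578, Gm13597 and Gm7435 had interactions of 5.60, 4.12 and 1.81, and are uncertain: Gm11578 was listed at 0 in 6 libraries, all 3 ethanol mice among them, and Gm13597 in 3. With stress means of 0.047 and 0.014 TPM, Gm11578 and Gm13597 passed the filter only through groups in which they were high. Some difference between groups was thus built into their being tested. Zcchc8 (0.53), Cfap70 (1.55) and Ap3m1 (0.47) were the other named genes above 0, called in 10, 6 and 5 of those 12 fits, and Zcchc8 and Ap3m1 were not called with a common total. Cfap70, with means of 0.926 TPM after ethanol and 0.856 after stress, passed the filter only through control and ethanol + stress mice.

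**Figure D2:**
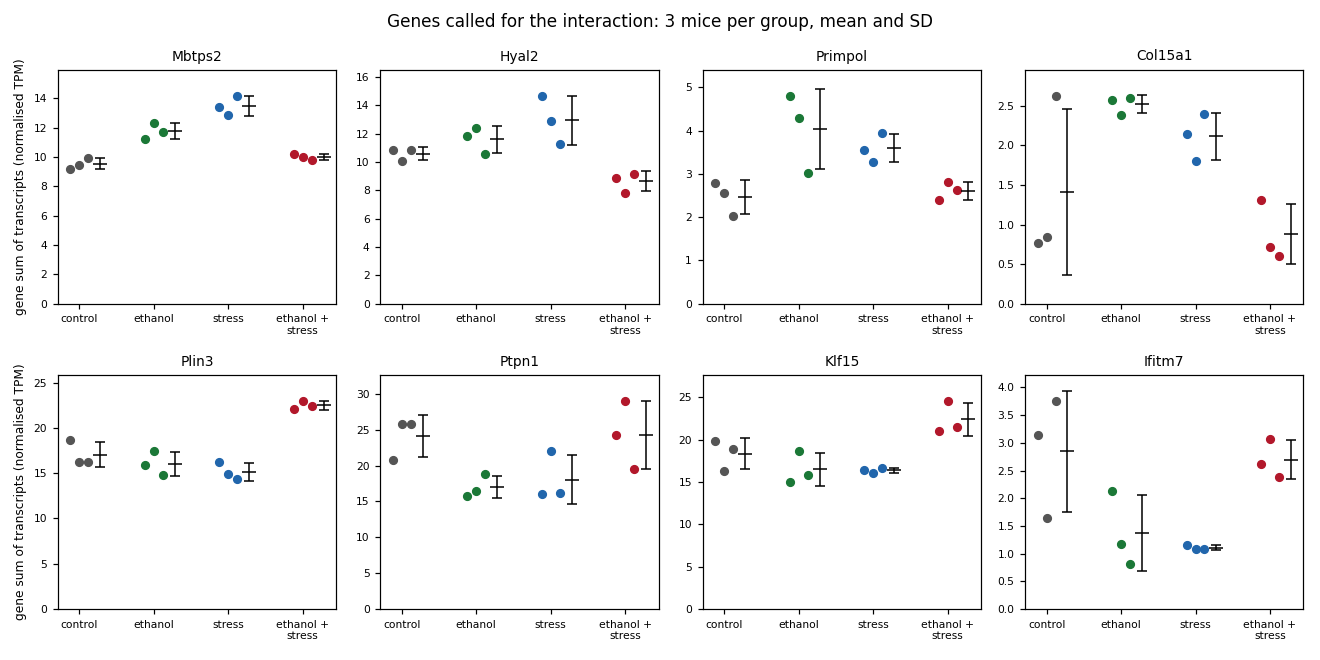
Gene sums in normalised TPM (y axis from 0) for 8 genes called for the interaction, with a point per mouse and the mean and SD of 3 mice beside each group. In the upper row the single treatments lie above the ethanol + stress mice. In the lower row the ethanol + stress means lie above those of the single treatments. The mice do so too, except in Ptpn1, where an ethanol + stress mouse at 19.5 TPM lies below a stress mouse at 22.0 TPM.

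A sum over transcripts also moves when read pairs are divided differently between a long and a short transcript of the gene, so the transcript that added most to each interaction was looked up. In 40 of the 45 called genes (88.9%) it was shorter than 1000 bases, against 36.9% of all tested genes, and its median length was 507 bases against 1656. In 17 of the 45 it was annotated as protein coding, against 72.6% of all. An estimated number of read pairs could be given for 41 of these transcripts, and its median over the 12 libraries was under 20 in 32 of them. For a transcript of 500 bases, 3 read pairs were worth 1.06 to 1.33 TPM. These shares are a description of genes already called.

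In Mbtps2 the transcript was 1 of 529 bases that made up 8.63% of the gene's TPM. In control mice all 3 values were 0, against 0.944, 1.32 and 1.78 after ethanol, 2.82, 2.04 and 1.24 after stress and 0, 0.817 and 0.615 after both, at most 8.45 estimated read pairs. The main Mbtps2 transcript, of 4797 bases and 75.1% of the TPM, had an interaction of -0.08. In Hyal2 a transcript of 544 bases had an interaction of -2.23 and the main transcript of 1893 bases one of 0.09. In Ptpn1 a noncoding transcript of 466 bases went from 6.18, 9.90 and 8.83 TPM in control to 0.0000172, 1.12 and 1.24 after ethanol, 2.38, 2.93 and 2.53 after stress and 5.65, 8.32 and 2.10 after both, while the main transcript of 4213 bases had an interaction of 0.15. In Plin3 the transcript had 562 bases and 21.9 estimated read pairs in the median library, and its interaction was 1.28 against 0.20 for the main transcript of 3645 bases. In Aaas, Primpol and Col15a1 the transcripts had 314, 482 and 345 bases, with a median of 2.26, 1.12 and 0.185 estimated read pairs. Their main transcripts had interactions of -0.07 in Aaas, -0.90 in Primpol and 0.11 in Col15a1. The main Primpol transcript, of 3772 bases, held only 29.2% of the TPM. Another Primpol transcript, of 3797 bases, had an interaction of 1.06, and the sum over transcripts of at least 1000 bases had one of 0.078. Klf15 differed from these, since all of its summed TPM came from transcripts of at least 1000 bases and its leading transcript of 2240 bases had 85.1 to 270 estimated read pairs. That transcript, with 53.8% of the TPM, stood at 9.191, 14.95 and 10.996 TPM in ethanol + stress mice and at 4.72 to 12.8 TPM in the others, so the order seen in the gene sum was not seen in it alone.

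**Figure D3:**
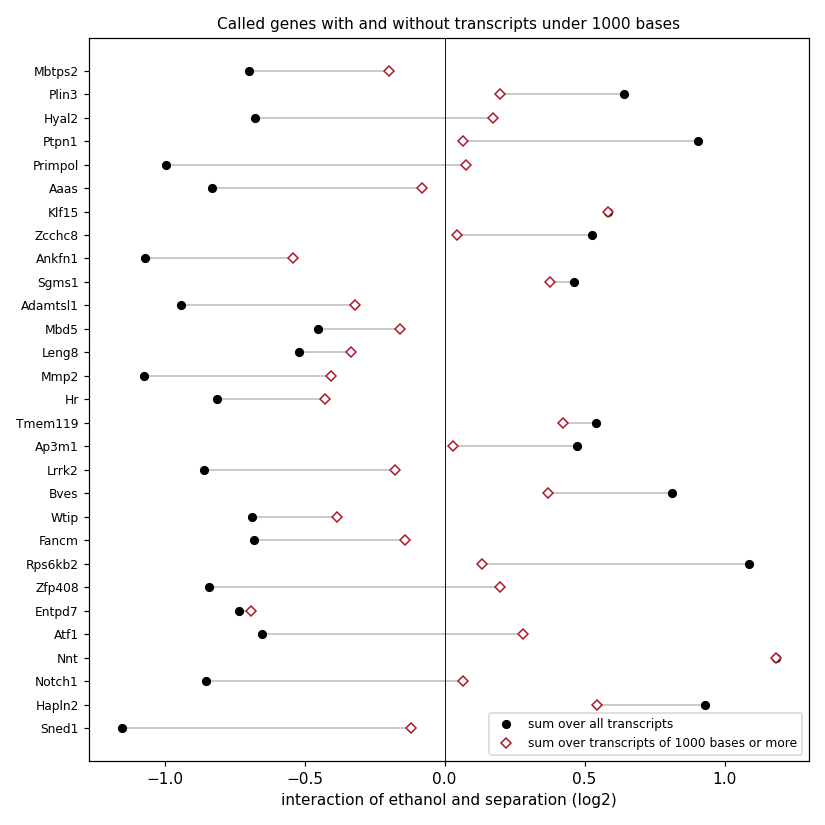
Interaction (log2) of 29 of the 30 called genes that could also be summed over transcripts of 1000 bases or more, with all transcripts (filled circles) and with the longer ones only (open diamonds). Over all 30 genes the median absolute value is 0.813 with all transcripts and 0.240 with the longer ones; Klf15, Nnt and Entpd7 remain called.

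With sums over transcripts of at least 1000 bases, an alternative added after the data were seen, 12858 genes were tested and 19 called (0.148%), 8 with I above 0 (0.0622%) and 11 with I below 0 (0.0855%). Of the 45 genes called on all transcripts, 30 could be tested and 3 were called again, namely Klf15, Nnt and Entpd7. The lowest adjusted p by limma was 1.0, and 170 genes had an unadjusted p under 0.05. Of the 30 genes, 25 kept the sign of I, and Hyal2, Primpol, Zfp408, Atf1 and Notch1 turned it. Leaving out single libraries gave between 10 and 60 calls, the extremes being without control replicate 2 and without ethanol + stress replicate 1, and 50 without ethanol replicate 2. Of the 19 genes, Irf1 and Klf15 were called in all 12 of these fits. The genes below were chosen after their values were seen, apart from Klf15 and Ifit1.

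Irf1 encodes an interferon regulatory factor that switches on interferon-stimulated and antigen presentation genes. On longer transcripts it stood at 6.23, 6.61 and 6.89 TPM in control, 4.85, 5.55 and 4.73 after ethanol, 5.98, 4.33 and 5.90 after stress and 7.07, 7.16 and 6.48 after both. Both single groups lay below control without overlap, and the ethanol + stress mice lay above both (I 0.69, 95% interval 0.30 to 1.08). With all transcripts its interaction was 0.39 (adjusted p = 1.0 by limma). Ifit1, an interferon-induced protein that binds viral RNA, had means of 2.17 ± 0.0813, 1.81 ± 0.381, 1.34 ± 0.185 and 2.39 ± 0.682 TPM in control, ethanol, stress and ethanol + stress mice (SD, n = 3 each). Adgre1, the macrophage marker F4/80, stood at 4.99, 5.96 and 6.13 TPM in ethanol + stress mice and at 3.55 to 4.72 TPM in the other 9. Nnt, the mitochondrial transhydrogenase, stood at 9.95 to 11.9 TPM in control, 6.77 to 10.7 after ethanol, 3.93 to 10.3 after stress and 9.60 to 12.1 after both (I 1.18), so the combined group was at the control level. Ifit1, Adgre1 and Nnt lost the call in most fits without a single library (9, 10 and 8 of 12).

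Zdhhc1, a palmitoyltransferase, stood at 11.9 to 12.5 TPM in control, 14.1 to 15.3 after ethanol, 13.9 to 15.3 after stress and 12.2 to 13.7 after both (I -0.44). Bmp7, a bone morphogenetic protein, stood at 2.60 to 2.90 TPM in control, 3.33 to 4.37 after ethanol, 3.46 to 3.97 after stress and 2.63 to 3.70 after both (I -0.68). Atat1, the tubulin acetyltransferase, had an interaction of -0.48, and the centrosomal Cep41 one of -0.59. For Zdhhc1 and Bmp7 both single groups lay above control without overlap. The call was lost without a single library in 3 of 12 fits for Zdhhc1, 8 for Bmp7, 7 for Atat1 and 9 for Cep41.

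**Figure D4:**
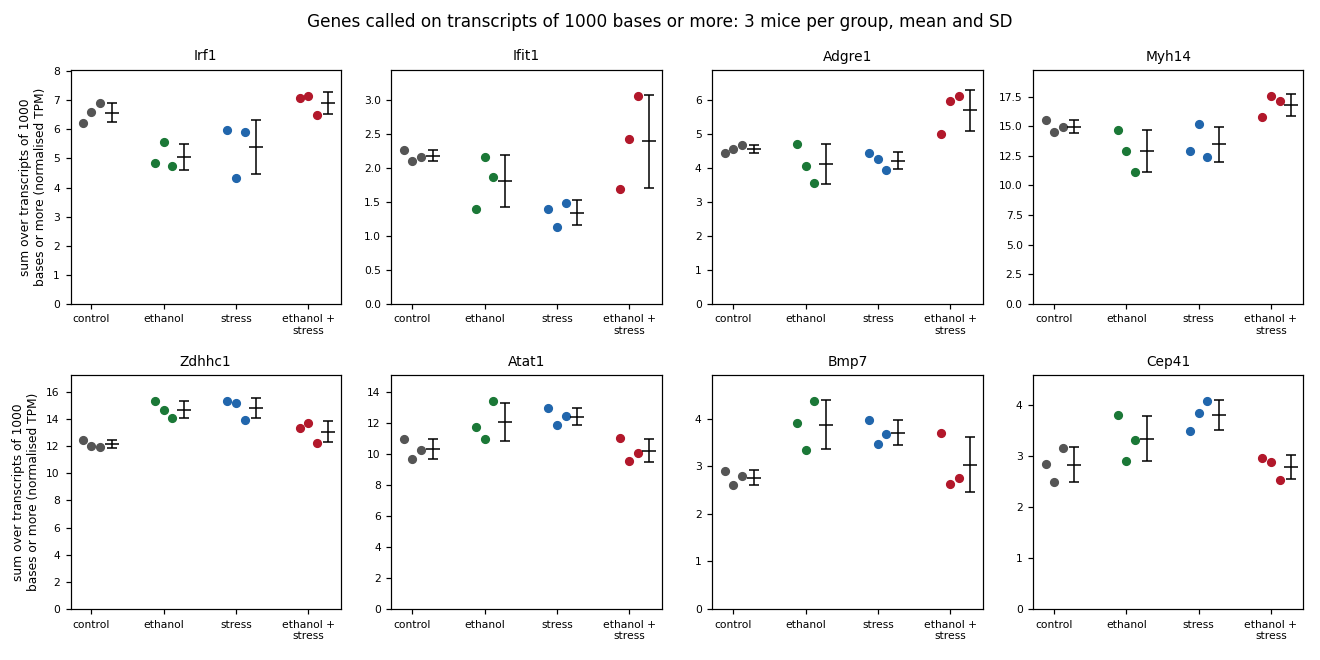
Sums over transcripts of 1000 bases or more in normalised TPM (y axis from 0) for 8 genes called on these sums, with a point per mouse and the mean and SD of 3 mice beside each group. In Irf1, Ifit1, Adgre1 and Myh14 the ethanol + stress mean is the highest; in Zdhhc1, Atat1, Bmp7 and Cep41 the single treatments have the highest means.

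The promoters of Klf15 and Irf1, the genes called in every fit on longer transcripts without a single library, are shown as RefSeq gives them on GRCm38.p6, from 250 bases before to 50 after the start. RefSeq promoters were matched for 25 of the 45 called genes. In Klf15 capitals mark CG dinucleotides, of which it has 47, where the median over 32851 promoters is 7. In Irf1, for the upstream of its 2 listed starts, capitals mark the letters TTCNNNGAA of the STAT-binding gamma-activated site, found 90 bases before the start and not in the promoter of the other start. These letters were in 8.30% of all promoters of this length, and the glucocorticoid receptor hexamer TGTTCT, searched on both strands, was in 19.0% and in neither of the promoters printed here. A match is a description of letters.
Klf15, chr6:90462326-90462625, plus strand: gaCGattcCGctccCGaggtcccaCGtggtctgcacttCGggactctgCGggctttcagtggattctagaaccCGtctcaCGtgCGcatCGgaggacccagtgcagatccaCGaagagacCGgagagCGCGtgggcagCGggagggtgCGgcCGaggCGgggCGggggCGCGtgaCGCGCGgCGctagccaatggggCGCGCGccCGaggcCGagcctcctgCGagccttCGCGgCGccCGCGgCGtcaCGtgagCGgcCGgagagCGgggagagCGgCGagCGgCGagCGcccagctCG
Irf1, chr11:53769764-53770063, plus strand: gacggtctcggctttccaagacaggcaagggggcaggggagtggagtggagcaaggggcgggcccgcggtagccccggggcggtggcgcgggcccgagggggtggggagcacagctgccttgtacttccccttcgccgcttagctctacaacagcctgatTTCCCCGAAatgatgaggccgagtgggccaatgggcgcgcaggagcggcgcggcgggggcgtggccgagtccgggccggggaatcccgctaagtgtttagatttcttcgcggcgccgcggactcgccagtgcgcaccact

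The effect of each treatment was compared between 2 sets of mice that share no samples, undisturbed and separated mice for ethanol, and mice without and with ethanol for separation. For ethanol, 1074 of the 14455 tested genes did not overlap between ethanol and control, and 1077 between ethanol + stress and stress mice. With 3 mice in a group some genes fail to overlap without any effect, and how many would was not computed. Of the 111 genes in both lists, 90 went the same way (0.623% of tested genes), 59 higher and 31 lower, and 21 opposite ways (0.145%). For separation the lists held 951 and 811 of the 14455 genes, and of 63 shared genes 35 went the same way (0.242%) and 28 opposite ways (0.194%). Across the 14455 genes the ethanol effects of the 2 sets had a Pearson r of 0.209 and a Spearman rho of 0.363, and the separation effects 0.103 and 0.143. Genes are not independent replicates, and 1 of the ethanol mice and 2 of the ethanol + stress mice are the libraries with the highest sums, whose part in the correlations was not tested. The counts of genes not overlapping in both sets were made again without each single library, which is not given here. Leaving those libraries out together was not tried. In 8 of the 14455 genes both effects turned, namely Mbtps2, Primpol, Ankfn1, Mmp2 and Bves, which were called, and Lig1, Csf1r and Lats1. Csf1r, the receptor on which microglia depend, stood at 44.5, 48.7 and 45.8 TPM in control, 43.9, 41.4 and 40.2 after ethanol, 41.8, 42.7 and 42.4 after stress and 44.32, 44.99 and 51.50 after both. Every single-treatment mouse lay below every other mouse, by a small margin (I 0.29, adjusted p = 1.0 by limma, not called).

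Of 31 gene lists, 2 had a called member on all transcripts, the microglial Tmem119 (higher) and the collagen Col15a1 (lower). That is 2 of 633 tested genes in the lists, or 0.316%, near the 0.311% of all tested genes. The interferon response list had 14 of 17 tested members with I above 0 and a median of 0.27, against 49.2% of all tested genes above 0 and their median of -0.0033. That median lay between 0.18 and 0.37 without any single library and was 0.23 with a common total and 0.26 on longer transcripts. The summed level of the interferon list was 158 to 172 TPM in control and 133 to 186 after ethanol. It was 165 to 182 TPM after stress and 153 to 216 after both, so the groups overlapped. Besides Ifit1 (0.86), Irf7, the regulator of type I interferon, had 2.37 to 3.04 TPM in control, 0.886 to 2.35 after ethanol, 1.54 to 1.93 after stress and 1.85 to 2.55 after both (I 0.95, adjusted p = 1.0 by limma). The microglia list had 9 of 11 members above 0 and a median of 0.21, between 0.10 and 0.38 without single libraries. Its complement genes C1qa, C1qb and C1qc had interactions of 0.35, 0.12 and 0.36, none called. The summed microglial level was 504 to 561 TPM in control, 440 to 632 after ethanol, 497 to 560 after stress and 519 to 720 after both, so the groups overlapped.

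Glucocorticoid target genes had 14 of 20 members above 0 and a median of 0.12, which was 0.07 without ethanol replicate 1 and 0.25 without ethanol + stress replicate 3. Mt1, a metallothionein induced by glucocorticoids and metals, stood at 455, 126 and 376 TPM in control, 422, 204 and 126 after ethanol, 146, 370 and 392 after stress and 661, 897 and 976 after both. All 3 ethanol + stress mice lay above the other 9, and the interaction of 1.92 (adjusted p = 1.0 by limma) was not called. Its neighbor Mt2 stood at 238 to 365 TPM in ethanol + stress mice and 104 to 205 TPM in the others (I 0.86). The kinase gene Sgk1 and the arrestin-domain gene Arrdc2 had interactions of 0.83 and 0.80 with overlapping groups. The list's summed level was 1454 to 1818 TPM in ethanol + stress mice and 699 to 1188 TPM in the rest, but without Mt1 and Mt2 the other 18 members summed to 475 to 626 TPM and 447 to 548 TPM, which overlap.

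Blood genes had the lowest median of the lists, -0.64, with 2 of 8 members above 0. On transcripts of 1000 bases or more, which left 4 members, the median was -0.034. Alas2, the first enzyme of heme synthesis in red cells, stood at 5.90 to 8.15 TPM in control, 12.5 to 21.4 after ethanol, 10.9 to 13.4 after stress and 10.0 to 17.6 after both (I -0.93, adjusted p = 1.0 by limma, not called). The alpha globin gene Hba-a1 stood at 252 to 355 TPM in control and at 425 to 1083 TPM in the 9 treated mice (I -0.96). In both genes each treated group lay above control, and the mean after both treatments lay between those of the single ones, the less than additive pattern. The summed level of the list was 2320 to 2677 TPM in control, 3750 to 7547 after ethanol, 3218 to 4115 after stress and 3095 to 7157 after both, and the median I was -0.27 without ethanol replicate 2 and -1.004 without ethanol + stress replicate 2. Whether blood genes had a part in the other results was not tested.

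**Figure D5:**
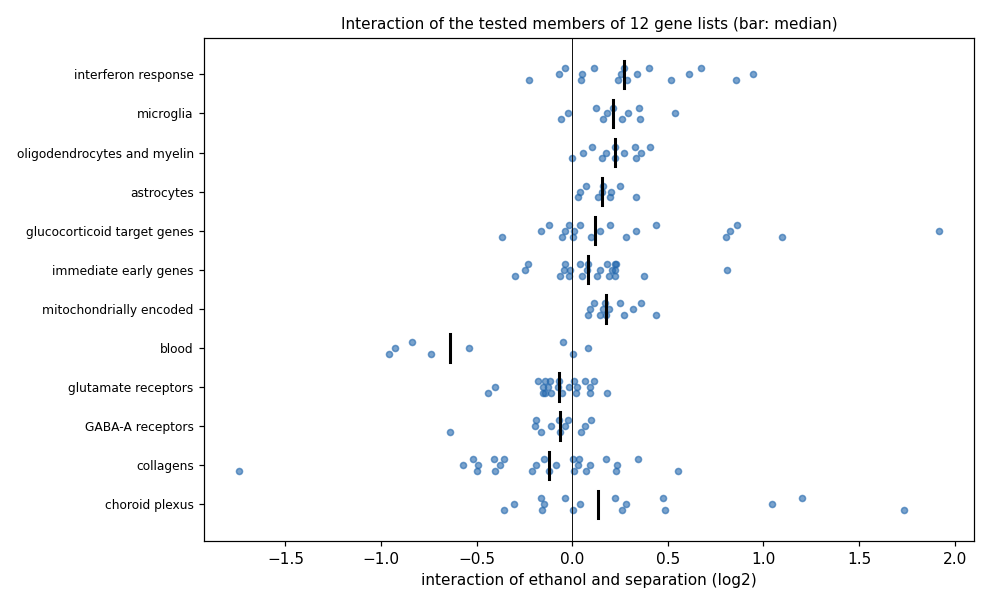
Interaction (log2) of each tested member of 12 gene lists, a point per gene and a bar at the median. Medians range from -0.64 for blood to 0.27 for the interferon response.

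In 10 of 10 astrocyte, 11 of 12 oligodendrocyte and myelin and 13 of 13 mitochondrially encoded genes I was above 0, with medians of 0.16, 0.22 and 0.18. Without ethanol replicate 3 these medians were 0.0049, 0.0068 and -0.04. Gjb6 (0.33), Ermn (0.36) and mt-Nd4l (0.32) had the smallest p in these lists, none called. Cytosolic ribosomal proteins (median 0.05, 67 of 81 above 0) and nuclear respiratory chain subunits (0.04) turned sign without ethanol replicate 3, to -0.13 and -0.13. With the log2 library sum as a covariate they were -0.021 and -0.032, with 24 and 29 of 81 members above 0. Immediate early genes had a median of 0.08 and heat shock proteins of 0.14 (-0.013 to 0.20 and 0.062 to 0.36 without single libraries), led by Nr4a2 (0.81, but -0.14 with coding transcripts only) and Bag3 (0.43). Dentate granule cells, CA1 pyramidal cells, CA3 and CA2 pyramidal cells and interneurons had medians of 0.10, 0.05, 0.03 and -0.04, led in the dentate granule, CA3 and CA2 and interneuron lists by Glis3 (0.23), Cpne7 (0.20) and Reln (-0.64). Endothelial cells and pericytes had a median of 0.10 (Ly6c1 0.32), oligodendrocyte precursors of 0.02 (Bmp4 -1.07), thalamus of 0.10 (Ramp3 0.31), striatum of -0.07 (Adora2a 0.82) and choroid plexus of 0.13 (Ttr 1.74, not called). Without single libraries the median ran from 0.034 to 0.17 for endothelial cells and pericytes, from 0.000058 to 0.12 for oligodendrocyte precursors and from 0.041 to 0.20 for thalamus, which was -0.024 on longer transcripts. The striatum median was 0.022 without stress replicate 3, and that of choroid plexus went from -0.32 without ethanol + stress replicate 2 to 0.94 without ethanol replicate 1.

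In 17 of the 31 lists the median took both signs as single libraries were left out, among them CA1 pyramidal cells (-0.11 to 0.11), glutamate receptors (-0.18 to 0.035), collagens (-0.31 to 0.012), replication-dependent histones (-0.14 to 0.15) and RNA polymerase II subunits (-0.079 to 0.16). No direction is read from these lists. Glutamate and GABA-A receptors had medians of -0.07 and -0.07, led by Grin2b (-0.41) and Gabra3 (-0.19). Corticosteroid receptors and the CRH system had -0.06 (Crhr1 -0.32), and genes that write, read or erase DNA methylation -0.07, led by the de novo methyltransferase gene Dnmt3a (-0.40, adjusted p = 1.0 by limma). Collagens had -0.12, clustered protocadherins -0.07 (Pcdhb6 0.83), adult neurogenesis -0.06 (Tubb3 -0.12), the circadian clock -0.04 (Cry1 0.29), alcohol and aldehyde metabolism 0.04 (Aldh9a1 0.28), RNA polymerase II subunits 0.03 (Polr2a -0.32) and replication-dependent histones 0.01 (Hist2h3c1 0.49). Rpl10 (-0.36) and Ndufa4l2 (-0.80) had the smallest p among ribosomal proteins and respiratory chain subunits. A common total for each library moved the median of all genes to -0.04.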

How the data were processed

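Total RNA from the hippocampus of 12 mice was depleted of ribosomal RNA and sequenced as stranded paired-end libraries. Per the labels and the study's methods, the authors quantified transcripts with kallisto and normalised them with sleuth on mm10 (GRCm38) with Ensembl transcripts. The deposited values are TPM after sleuth's normalisation between libraries, a signal without counts, with replicates kept apart. The authors' versions were not given in the sources used here. Of 115270 transcripts, 113580 were matched to GENCODE vM21, and the unmatched ones held 0.518% to 0.580% of a library. Transcripts were summed by gene, and log2(sum + 0.5) was fitted with limma 3.58.1 in R 4.3.3 with a mean-variance trend, over all genes with a mean of at least 1 TPM. Fold changes on this scale understate the change of low genes. Genes were called at an unadjusted p under 0.01 and p values were adjusted by Benjamini-Hochberg over all tested genes. Named genes were the 12 with the smallest p in each direction, list members by the smallest p. The code was tested on simulated data. Genes and lists were chosen with earlier results of these data known. Read depth was estimated from the low values, and it limits short transcripts most. Same-numbered mice of different groups were checked for shared deviations: 2 of 18 pairs had a correlation over 0.1 (range -0.213 to 0.200), so the numbers were not taken as pairs. Alternatives changed the pseudocount, filter, scaling, transcript types, block and libraries. The sums over transcripts of 1000 bases or more and the fit with a covariate were added after the data were seen. Figures were drawn with matplotlib 3.10.9. The values of 2 genes are not reported here.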

Additional observations from a re-analysis of the deposited data

Results flagged for a closer look

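For 13 of the 75 genes examined the effect of 1 treatment went opposite ways with and without the other treatment, with no overlap between the groups compared. The test of that difference is the interaction, and each of the 13 genes had an adjusted p of 1.0 by limma. The interaction was -0.70 in Mbtps2, -0.68 in Hyal2, -0.995 in Primpol, -1.30 in Gm21860 and in Gm21748, -1.07 in Ankfn1, -0.94 in Adamtsl1, -0.45 in Mbd5, -0.52 in Leng8 and -0.42 in Prr14. It was 1.83 in Ifitm7, 0.53 in Zcchc8 and 0.47 in Ap3m1. Which genes were examined was set in part by the size of the interaction, so their share is no result; over all tested genes 0.145% crossed in this way for ethanol and 0.194% for separation. Gm21860 and Gm21748 have identical values and are 1 signal.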

How the results depend on the processing

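Of 1402 pairs of a named gene and an alternative, 1277 kept their direction and side of the threshold, 93 lost the call, 21 gained it and 11 turned sign; the cause was not tested. The 45 interaction calls became 26 at a mean of 5 TPM or more, 131 without a filter, 274 at p under 0.05, 102 with the log2 library sum as a covariate, 19 with transcripts of 1000 bases or more, and 35 to 89 without single libraries. An adjusted p under 0.05 by limma was reached by 3 genes without a filter (lowest 0.00359), by 1 each without control replicate 2, ethanol replicate 2, stress replicate 3 or ethanol + stress replicate 3, and by 2 without ethanol replicate 3. The 87 genes with any group difference became 205 without a filter, 45 with a common total, 147 with the covariate, 33 with longer transcripts and 57 to 199 without single libraries. The 6 additive leading genes became 10 at 1 TPM or more in every group mean, 12 at 2 standard errors, 15 of 60 leading genes and 3 to 9 without single libraries. A common total left 30 interaction calls (25 shared) and coding transcripts only 43 (14 shared). With the replicate block 44 genes were called, 31 of them shared, and the lowest adjusted F p was 0.111; since the numbers do not pair the mice, this says nothing of a weaker effect. Signs turned with coding transcripts only in Zcchc8 (-0.12), Cth (0.24), Sinhcaf (-0.14) and Nr4a2 (-0.14), with longer transcripts in Hyal2 (0.17), Primpol (0.078), Cth (0.24) and Nr4a2 (-0.039). Without single libraries Cth ranged from -0.19 to 0.035, above 0 without control replicate 3 (0.035), stress replicate 2 (0.020) and ethanol + stress replicate 1 (0.031). At 500 bases 3 read pairs are worth over 1 TPM, so depth limits the short transcripts.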
